A study of Microtus ochrogaster with 40 samples.

Results

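Female prairie voles (Microtus ochrogaster) that had lived with a mate were compared with females that had lived with a peer, in single-nucleus RNA libraries of the nucleus accumbens. The libraries were those with the letter F in their file names, which are also the libraries labelled Female. They number 19 of the 40 in the series, 11 labelled Mate and 8 labelled Peer, and the animal was the replicate throughout. A mate is an opposite-sex partner and a peer a same-sex partner, each new to the animal and housed with it for 16 days. No group was left unpaired, so both groups had a new companion, and the ages of the animals are not given in the sources used here. Per the labels' protocols, frozen nucleus accumbens tissue was punched from each animal separately, nuclei were collected from an iodixanol density gradient, and each animal gave 1 droplet library. The other 21 libraries came from 11 male mates and 10 male peers. They are used where the difference between the sexes was tested and in the alternative with all libraries in the fit. Some of their shares and means are also given beside the female values without a test.

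Prairie voles form lasting bonds with a mate, and females and males also form selective ties with a familiar same-sex peer. The nucleus accumbens is the ventral part of the striatum, built mostly of inhibitory spiny projection neurons that carry dopamine receptors of the D1 or D2 class. In this species, oxytocin, dopamine and opioid receptors of this region are known to take part in the bond to a mate, which is why those genes are described here whatever their values.

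The 19 libraries held 88959 barcodes, none below 500 UMIs (unique molecular identifiers, each standing for 1 captured RNA molecule). Barcodes with at most 5% mitochondrial UMIs were kept, which left 87815 nuclei, between 2356 and 8204 in a mate and between 2059 and 5853 in a peer. Total UMIs of the kept nuclei ran from 5004515 to 14907749 in mates and from 3890706 to 10446314 in peers. In two-sided exact permutation tests of 5 library measures (kept barcodes, total UMIs, median UMIs, median genes and median mitochondrial percent) the adjusted p ran from 0.390 to 0.501. Among glia alone the median UMIs per nucleus were 740 ± 59.3 (SD, n = 11) in mates and 814 ± 70.6 (SD, n = 8) in peers (exact permutation p = 0.0251, unadjusted). The same barcode turned up in 2 libraries in all 171 pairs of libraries, in 0.194 to 1.41% of the smaller library (median 0.777%). Among the peers, female peer 1 had the lowest median UMIs (935) and the highest median mitochondrial percent (0.732%), and female peer 5 had the largest share of neurons among all 19 libraries (75.2%). Among the mates, female mate 1 had the smallest share of neurons of all 19 libraries (56.8%) and the largest share of glia of the mates (37.7%, the next mate being at 28.0%). Fits were also run without each of these 3, which for shares and finer classes was an alternative chosen after the data were seen.

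Nuclei were split by marker UMIs into neurons (60671, 69.1%), glia (23077, 26.3%) and nuclei that met neither rule (4067, 4.63%). Spiny-neuron markers picked out 42059 nuclei, markers of glutamate neurons 9841 and those of interneurons 2420. Astrocyte markers picked out 11001 nuclei, those of oligodendrocytes 6748, of oligodendrocyte precursors 1810 and of microglia 2386. All 14 spiny-neuron markers, Drd1, Drd2, Ppp1r1b and Penk among them, were detected. Their detection does not show how closely the punches kept to the nucleus accumbens, which was not tested. Glutamate neurons, by their markers, made up 11.2% of the kept nuclei. These classes come from marker counts in single barcodes and not from the authors' annotation.

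Spiny neurons made up a larger mean share of the nuclei in mates than in peers, and microglia and interneurons a smaller one, but no share passed the test after adjustment over 11 shares. The spiny-neuron share ran from 36.3 to 61.9% in mates (median 46.9%) and from 29.8 to 58.7% in peers (median 38.0%). Below every mate lay 3 of 8 peers and above every peer 2 of 11 mates, the highest peer being female peer 5. The means were 49.4 ± 8.64% (SD, n = 11) and 40.9 ± 9.12% (SD, n = 8), a difference of 8.53 percentage points (two-sided exact permutation p = 0.0546, adjusted p = 0.272). Neurons as a whole were 4.28 points higher in mates, 69.6 ± 5.09% (SD, n = 11) against 65.3 ± 4.47% (SD, n = 8) (exact permutation p = 0.0742, adjusted p = 0.272). Glutamate neurons ran from 5.01 to 17.09% in mates and from 6.5 to 16.85% in peers. Their means were 10.7 ± 4.7% (SD, n = 11) and 12.5 ± 3.5% (SD, n = 8) (exact permutation p = 0.378, adjusted p = 0.520). Without female peer 5 the spiny-neuron difference was 11.1 points and that of neurons 5.71 points, both at an adjusted exact permutation p of 0.0779. Without female peer 1 the spiny-neuron difference was 7.81 points (adjusted exact permutation p = 0.206). Without female mate 1 it was 9.15 points (adjusted exact permutation p = 0.133) and that of neurons 5.57 points (adjusted exact permutation p = 0.0852).

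Among glia, the microglial share was 2.57 ± 1.34% (SD, n = 11) in mates and 3.56 ± 1.17% (SD, n = 8) in peers (exact permutation p = 0.110, adjusted p = 0.303). Astrocytes were at 12.4 ± 2.11% and 13.6 ± 3.02%, and oligodendrocytes at 7.44 ± 2.19% and 8.66 ± 2.00%. Oligodendrocyte precursors were at 2.09 ± 0.404% and 1.96 ± 0.327%. The glial shares moved with the settings. For glia as a whole, mates minus peers was -3.28 points over all kept nuclei, -6.01 points among nuclei with at least 1000 UMIs and -4.47 points without female mate 1 (exact permutation p = 0.173, 0.0380 and 0.0370, unadjusted). For astrocytes it was -1.23 points over all kept nuclei, -1.91 points without female peer 1 and -3.74 points among nuclei with at least 1000 UMIs (unadjusted exact permutation p = 0.0315 for the last). The microglial difference of -0.994 points was -0.228 points among the latter, and -1.29 points without female mate 1. No adjusted p of these was under 0.05. Interneurons, which are sparse in the striatum, were at 2.54 ± 0.641% and 3.07 ± 0.494% (exact permutation p = 0.0709, adjusted p = 0.272). In the males the spiny-neuron share was 46.2 ± 7.43% (SD, n = 11) in mates and 46.1 ± 12.3% (SD, n = 10) in peers, and the difference between the sexes in these shares was not tested. The plot of shares by animal shows how far the groups overlapped.

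**Figure D1:**
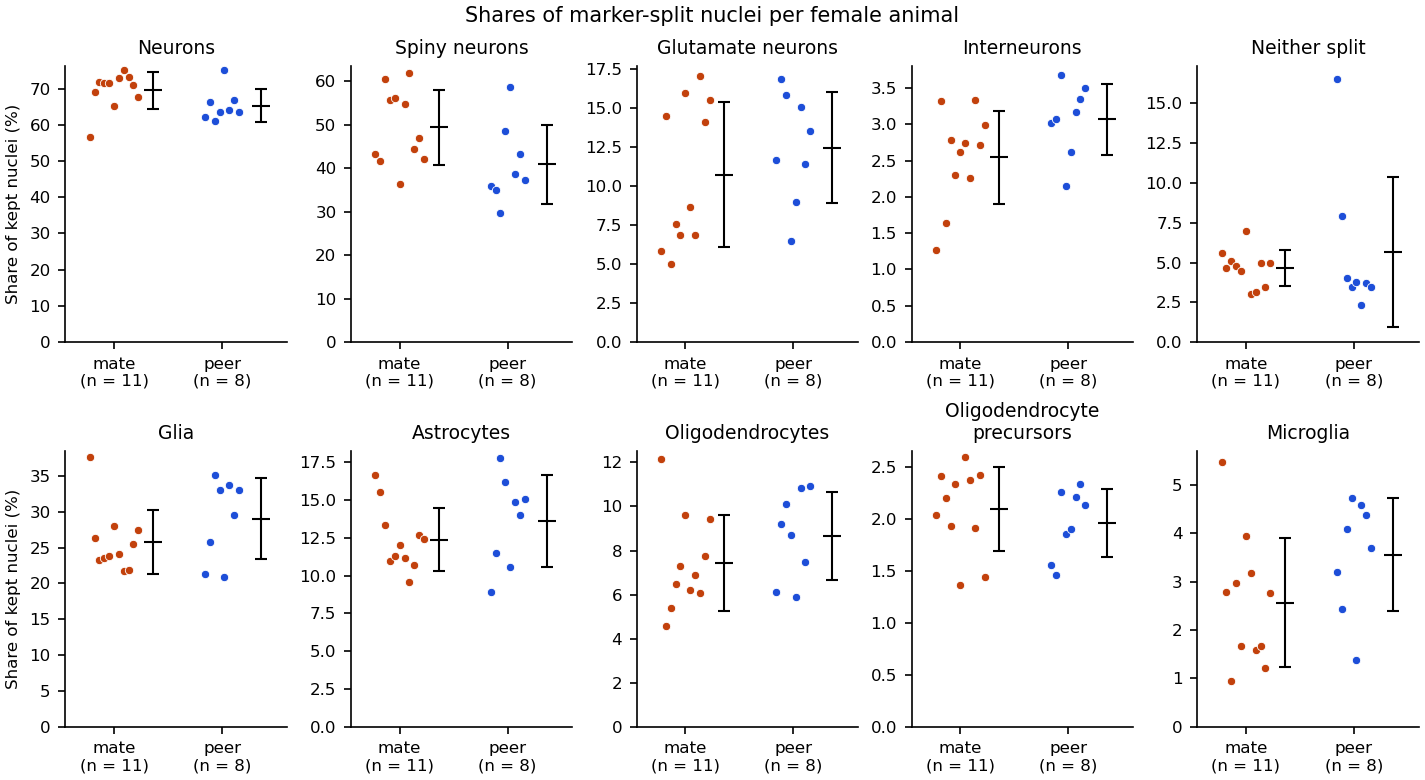
Share of kept nuclei (%, vertical axes from 0) in each marker class for the 11 female mates and 8 female peers; each point is 1 animal and the black bars give the mean and SD. The spiny-neuron points of mates reach from 36.3 to 61.9% and overlap those of peers, and female peer 1 stands alone at 16.6% in the panel of nuclei that met neither rule.

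No gene was called different between mates and peers in the counts summed per animal over all nuclei, over neurons or over glia. A call here means an adjusted p under 0.05 in edgeR's quasi-likelihood test with Benjamini-Hochberg adjustment over all genes tested, and the percentage called was 0 in each of the 9 populations fitted. The lowest adjusted p was 0.422 over 13476 genes in all nuclei, 0.573 over 12670 in neurons and 0.176 over 10724 in glia (edgeR). At an unadjusted p under 0.05 edgeR gave 1282 genes in all nuclei (9.51% of those tested), 626 higher in mates (4.65%) and 656 lower (4.87%). The same threshold gave 949 genes in neurons (7.49%), 538 higher (4.25%) and 411 lower (3.24%), and 734 in glia (6.84%), 391 higher (3.65%) and 343 lower (3.2%). DESeq2 called 1 gene in all nuclei, Gpc4, and none in neurons or glia, and limma voom called none in any of these.

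The 19 animals set how small a difference could be seen. The median standard error of a log2 fold change was 0.12 in all nuclei, and 94.1% of the 95% intervals lay within a 2-fold change in either direction. In neurons 95.4% did, and in glia 96.1%. Intervals within a 1.5-fold change were fewer, 78.2% in all nuclei, 80.0% in neurons and 75.7% in glia. Leaving out female peer 5 raised the genes at an unadjusted p under 0.05 to 1959 in all nuclei and 1427 in neurons, still with no call (edgeR, lowest adjusted p 0.0838 and 0.220).

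The genes named next are the 5 with the lowest p in each direction among genes with a mean of at least 5 CPM (counts per 1000000 UMIs summed) in a group. Since none was called, the values describe the order of the evidence and not established changes. Summed over all nuclei, a level can be lower because fewer nuclei of a type were sampled or because each holds less RNA, and the 2 cannot be told apart.

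Among the genes lower in mates, the lowest p belonged to Gpc4 (ENSMOCG00000012439), a glypican released by astrocytes that promotes the formation of excitatory synapses. It lay between 15.3 and 25.1 CPM in mates (median 17.8) and between 19.0 and 42.1 CPM in peers (median 31.8). Of the 11 mates, 7 were below every peer, and 5 of the 8 peers were above every mate. The lowest peer, inside the range of the mates, was female peer 5. The fitted log2 fold change was -0.65 (SE 0.13), or 1.57-fold higher in peers (edgeR adjusted p = 0.422; DESeq2 adjusted p = 0.0395). Without female peer 5 it was -0.72 (edgeR adjusted p = 0.0838).

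Rgma, a guidance molecule that repels growing axons, ran from 62.0 to 104 CPM in mates (median 83.0) and from 92.3 to 155 CPM in peers (median 121). Again 7 mates lay below every peer and 5 peers above every mate, with a log2 fold change of -0.50 (SE 0.11, adjusted p = 0.422 by edgeR). Atp1b2, a sodium pump subunit abundant in astrocytes, ran from 246 to 377 CPM in mates (median 304) and from 333 to 451 CPM in peers (median 399). With 6 peers above every mate, it was fitted at -0.36 (SE 0.09). Among nuclei with at least 1000 UMIs the fits were -0.82 for Rgma and -0.60 for Atp1b2 (edgeR adjusted p = 0.295 for both). That cut dropped most glia, whose median UMIs were at most 851 in a mate and 941 in a peer. The part of the glia lost to the cut in these 2 fits was not tested. Dele1, which relays stress in mitochondria to the cytosol, ran from 31.5 to 53.2 CPM in mates (median 42.1) and from 42.5 to 65.8 CPM in peers (median 57.1). Here too 6 peers lay above every mate, at -0.40 (SE 0.09). The fifth gene, Tmem209, was at -0.36 (SE 0.09). In the males 4 of these 5 had a lower mean in mates than in peers, such as Gpc4 at 25.8 and 28.1 CPM. Dele1 stood the other way, at 42.5 ± 11.6 CPM (SD, n = 11) in mates against 40.4 ± 5.39 CPM (SD, n = 10) in peers. Male mates and male peers were not tested against each other. The share of all genes with the same direction in both sexes is not given here, so the male means are a description only. Rgma and Atp1b2 are at their highest in astrocytes, with means in astrocyte nuclei of 1232 and 3187 CPM in peers. Astrocyte markers summed over all nuclei lay from 1905 to 3138 CPM in mates and from 2365 to 3645 CPM in peers. Their part in these values was not tested. Within astrocytes Rgma was at a log2 fold change of -0.34 (SE 0.12, adjusted p = 0.716 by edgeR) and Atp1b2 at -0.26 (SE 0.13, adjusted p = 0.781 by edgeR).

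Among those higher in mates it belonged to Tent4a (ENSMOCG00000008477), an enzyme that extends the tails of messenger RNAs. It ran from 24.4 to 37.3 CPM in mates (median 27.9) and from 18.6 to 26.8 CPM in peers (median 21.3). Of the 8 peers, 7 lay below every mate, and the other, female peer 5, sat among the mates. The log2 fold change was 0.41 (SE 0.09, adjusted p = 0.422 by edgeR). Foxk1, a forkhead transcription factor, ran from 37.9 to 54.4 CPM in mates (median 46.5) and from 29.9 to 39.2 CPM in peers (median 37.7). With 9 mates above every peer, its log2 fold change was 0.34 (SE 0.08). The transcription factor Zfhx2, the deubiquitinating enzyme Otud4 and the synaptic kinase Tnik had log2 fold changes of 0.31, 0.33 and 0.27 (SE 0.08, 0.08 and 0.07; edgeR adjusted p = 0.422 for each). In the males, the mean of the mates exceeded that of the peers for all 5, again without a test. For example, Tent4a averaged 29.4 ± 6.10 CPM (SD, n = 11) in male mates and 25.6 ± 3.62 CPM (SD, n = 10) in male peers.

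**Figure D2:**
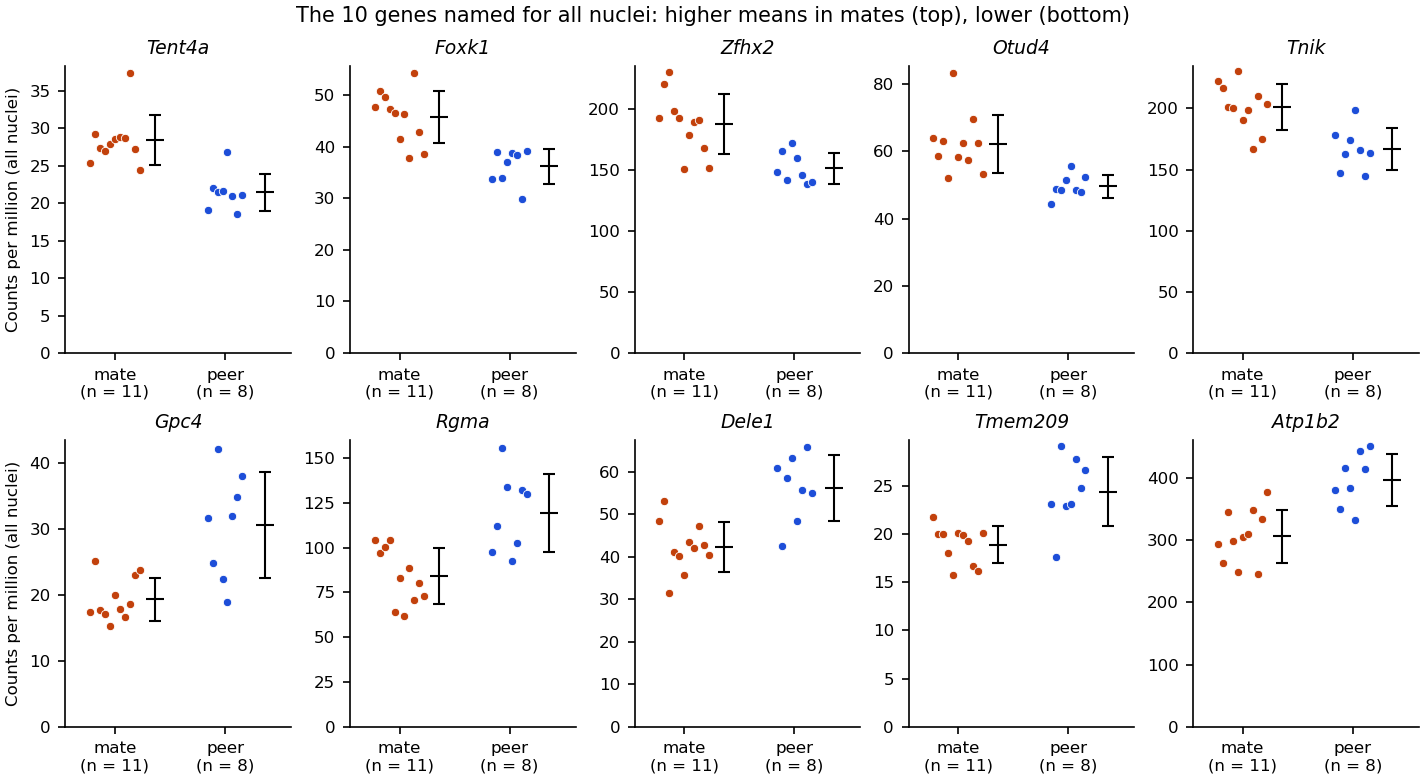
CPM (vertical axes from 0) of the 10 genes named for all nuclei in each of 11 female mates and 8 female peers, with the 5 of higher mean in mates on top; points are animals and black bars the mean and SD. No panel separates the groups fully: in the panel of Gpc4 the peers reach from 19.0 to 42.1 and the mates from 15.3 to 25.1.

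Within neurons the genes of lowest p were in part the same, Tent4a, Otud4, Zfhx2 and Tnik higher in mates and Dele1 lower. To these came the reader of methylated messenger RNA Ythdf3, at a log2 fold change of 0.30 (SE 0.08, adjusted p = 0.573 by edgeR). Among the genes lower in mates stood Htr1a, the inhibitory serotonin receptor 1A, and Nppc, which encodes C-type natriuretic peptide. Htr1a ran from 4.28 to 8.83 CPM in mates (median 5.62) and from 7.09 to 12.5 CPM in peers (median 9.58). There 7 of 11 mates were below every peer and 5 peers above every mate, with a log2 fold change of -0.61 (SE 0.16, adjusted p = 0.573 by edgeR). Nppc ran from 6.81 to 26.4 CPM in mates (median 17.5) and from 22.4 to 40.5 CPM in peers (median 27.1). Of the 11 mates, 9 lay below every peer, and the log2 fold change was -0.66 (SE 0.18, adjusted p = 0.573 by edgeR).

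Both Htr1a and Nppc were lower in spiny neurons than in rarer neuron classes, and the part of the mix of neurons in these values was not tested. The 32 alternatives run in neurons included 1 with the share of glutamate neurons as a covariate. Over all of them Htr1a ran from -0.69 to -0.52 and Nppc from -0.74 to -0.50. Mean Htr1a was 35.3 CPM in the interneurons of mates and 1.89 CPM in their spiny neurons, and mean Nppc 54.6 CPM in glutamate neurons and 5.16 CPM in spiny neurons. Within spiny neurons Htr1a was at -0.82 (SE 0.29) and Nppc at -0.63 (SE 0.26), at adjusted p values of 0.616 and 0.630 by edgeR. Suclg2, a subunit of an enzyme of the citric acid cycle, ran from 3.73 to 12.4 CPM in mates (median 6.45) and from 7.64 to 18.5 CPM in peers (median 10.6). Its log2 fold change was -0.76 (SE 0.19, adjusted p = 0.573 by edgeR), with 8 of 11 mates below every peer and 3 peers above every mate. The aminopeptidase Xpnpep1 was at -0.28 (SE 0.07).

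Within glia, Rsrc1, a gene of messenger RNA splicing, had the lowest p of the genes with a symbol. It ran from 15.2 to 36.7 CPM in mates (median 26.6) and from 34.1 to 58.3 CPM in peers (median 39.1). Only 2 mates reached the range of the peers, since 9 were below every peer. The log2 fold change was -0.64 (SE 0.14, adjusted p = 0.449 by edgeR). Rpgr, which works at the base of cilia, ran from 9.61 to 20.4 CPM in mates (median 16.2) and from 14.5 to 36.9 CPM in peers (median 26.3). Fitted, this was -0.74 (SE 0.18, adjusted p = 0.647 by edgeR), while in neurons it was -0.03 (SE 0.09). The difference between those 2 fits was not tested. Ruvbl2, Frg1 and Spa17 were at -0.43 (SE 0.11), -0.61 (SE 0.16) and -0.49 (SE 0.13), Ruvbl2 being at -0.29 among nuclei with at least 1000 UMIs.

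Genes higher in the glia of mates included Pik3r3, a regulatory subunit of phosphoinositide 3-kinase. It ran from 59.6 to 106 CPM in mates (median 84.2) and from 39.3 to 81.8 CPM in peers (median 55.4), with 7 mates above every peer. The fit gave 0.55 (SE 0.13, adjusted p = 0.647 by edgeR). The protocadherin Pcdh9, a cell adhesion protein, ran from 181 to 315 CPM in mates (median 262) and from 139 to 232 CPM in peers (median 198). With 9 mates above every peer, its log2 fold change was 0.41 (SE 0.11, adjusted p = 0.647 by edgeR). Fam193b, the calcium channel subunit Cacnb1 and the kinase inhibitor Inka2 were at 0.46, 0.43 and 0.49 (SE 0.12, 0.11 and 0.13), Cacnb1 being at 0.73 among nuclei with at least 1000 UMIs. RNA of spiny neurons was present in the glial nuclei of both groups, at a higher median in those of mates. The 14 spiny-neuron markers summed to between 948 and 2397 CPM in mates (median 1656) and to between 767 and 2062 CPM in peers (median 1284). All 14 had positive log2 fold changes in glia (median 0.34, against -0.00 over all genes tested). Of the 14, 4 were higher at an unadjusted p under 0.05, beside 3.65% of all genes tested in glia, and the part of this RNA in the other glial values was not tested.

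A gene without a symbol had the lowest p in glia, and it was chosen for description after its values were seen. ENSMOCG00000010003 ran from 11.8 to 147 CPM in the glia of mates (median 99.6) and from 5.01 to 68.0 CPM in those of peers (median 17.8). Of the 11 mates, 9 lay above every peer, and female mates 8 and 10, at 11.8 and 24.8 CPM, lay among the peers. The log2 fold change was 2.23 (SE 0.41, adjusted p = 0.176 by edgeR). It was called in 6 of 33 settings tried for glia, among them those that left out female mate 8 (adjusted p = 0.0105), female mate 10 (adjusted p = 0.0392) or female peer 1 (adjusted p = 0.0316), all by edgeR. Over all nuclei the groups overlapped far more, at 3.60 to 551 CPM in mates (median 45.9) and 2.46 to 113 CPM in peers (median 12.4), with only female mate 7 above every peer. The log2 fold change there was 1.29 (SE 0.79, adjusted p = 0.611 by edgeR), and 0.14 without female mate 7. In neurons it ran from 0.110 to 106 CPM in mates and from 1.32 to 37.0 CPM in peers, the next highest peer being at 12.7 CPM. Female mate 8 was the lowest mate and female peer 1 the highest peer in neurons as in glia. By class, mates had means of 74.3 CPM in astrocytes, 83.0 CPM in oligodendrocytes and 38.7 CPM in spiny neurons. In 3 libraries the level over all nuclei exceeded that in both neurons and glia, the rest of its UMIs being in nuclei that met neither rule. Female mate 7 was at 551 CPM over all nuclei, 106 CPM in neurons and 127 CPM in glia. Female peers 3 and 8 were at 82.7 and 113 CPM over all nuclei, at 8.69 and 12.0 CPM in neurons and at 13.9 and 25.6 CPM in glia. In the males its glial mean was 55.3 CPM in mates and 84.8 CPM in peers, in the other order. The difference between the sexes was 2.94 on the log2 scale, with an edgeR adjusted p of 0.966.

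In the finer classes edgeR again made no call, and each was described by the 2 genes of lowest p with a mean of at least 5 CPM in a group. At an unadjusted p under 0.05 edgeR gave 912 of 11819 genes in spiny neurons (7.72%), 519 of 10405 in glutamate neurons (4.99%) and 544 of 8620 in astrocytes (6.31%). It gave 309 of 6274 in oligodendrocytes (4.93%), 93 of 2106 in oligodendrocyte precursors (4.42%) and 105 of 1862 in microglia (5.64%). DESeq2 called 2 genes in spiny neurons, 1 each in glutamate neurons, astrocytes and oligodendrocyte precursors, and none in oligodendrocytes or microglia.

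In spiny neurons Tent4a ran from 26.0 to 39.6 CPM in mates (median 30.8) and from 19.1 to 26.9 CPM in peers (median 21.5). All but 1 mate lay above every peer, and the log2 fold change was 0.48 (SE 0.09, adjusted p = 0.243 by edgeR and 0.0132 by DESeq2). The single peer within the range of the mates was female peer 5, and without it edgeR called Tent4a (adjusted p = 0.0431). Leaving out the only peer among the mates could only widen the difference, and it was chosen after the data were seen. Without female mate 1 or female peer 1 no gene of this class was called (edgeR, lowest adjusted p 0.259 and 0.316). Lin7b (ENSMOCG00000016722), a scaffold protein of synapses, ran from 301 to 349 CPM in mates (median 326) and from 346 to 461 CPM in peers (median 392). Below every peer were 9 of 11 mates, and above every mate 6 of 8 peers. Its log2 fold change was small, -0.26 (SE 0.05, adjusted p = 0.467 by edgeR and 0.00138 by DESeq2). Tent4a in glutamate neurons was at 0.15 (SE 0.13).

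In glutamate neurons Hus1 (ENSMOCG00000016166), part of a clamp that senses DNA damage, ran from 15.1 to 34.6 CPM in mates (median 22.7) and from 28.1 to 60.5 CPM in peers (median 46.6). Above every mate lay 6 of 8 peers, and the log2 fold change was -0.86 (SE 0.16, adjusted p = 0.148 by edgeR and 0.0146 by DESeq2). Fitted values of Hus1 in spiny neurons and astrocytes were -0.48 (SE 0.15) and -0.39 (SE 0.18). Gpc4, the other gene named for this class, was at -0.46 (SE 0.11) in glutamate neurons.

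In astrocytes Pcdh9 (ENSMOCG00000020371) ran from 121 to 175 CPM in mates (median 155) and from 82.4 to 125 CPM in peers (median 98.3). Above every peer were 9 of 11 mates, and below every mate 7 of 8 peers. The log2 fold change was 0.58 (SE 0.10, adjusted p = 0.0655 by edgeR and 0.0117 by DESeq2). Without female peer 5, the highest peer, edgeR called Pcdh9 (adjusted p = 0.0267), an alternative chosen after the data were seen. Without female peer 1 or female mate 1 the lowest adjusted p in astrocytes was 0.182 and 0.106 (edgeR). Elsewhere Pcdh9 was at 0.54 (SE 0.16) in oligodendrocyte precursors, 0.30 (SE 0.14) in oligodendrocytes, 0.27 (SE 0.12) in glutamate neurons and 0.18 (SE 0.09) in spiny neurons. Astrocyte Rpgr ran from 8.26 to 24.3 CPM in mates (median 17.4) and from 20.8 to 49.2 CPM in peers (median 39.7), a log2 fold change of -1.01 (SE 0.21, adjusted p = 0.238 by edgeR). Gpc4, named here after its values were seen, ran from 107 to 137 CPM in the astrocytes of mates (median 116) and from 118 to 229 CPM in those of peers (median 169). Its log2 fold change there was -0.54 (SE 0.12, adjusted p = 0.238 by edgeR), with 6 peers above every mate. Neuronal RNA was also present in the astrocyte nuclei. Of 13 spiny-neuron markers tested there, 12 had positive log2 fold changes (median 0.28) and 2 an unadjusted p under 0.05. They summed to between 1055 and 2434 CPM in mates (median 1733) and to between 1087 and 1901 CPM in peers (median 1368), and their part in the values of Pcdh9 and the other genes was not tested.

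Oligodendrocytes were described by the adhesion molecule Ncam2, at a log2 fold change of -0.67 (SE 0.15, adjusted p = 0.578 by edgeR), and Mcm3ap, which works in the export of messenger RNA, at 0.93 (SE 0.23, adjusted p = 0.660 by edgeR). In their precursors Gatm, an enzyme of creatine synthesis, was at -0.62 (SE 0.17) and the adhesion molecule Dscam at 0.65 (SE 0.18), both at an edgeR adjusted p of 0.641. Sgk1, a kinase that glucocorticoids induce, was chosen after its values were seen. It ran from 618 to 2564 CPM in the oligodendrocytes of mates (median 1785) and from 1553 to 4091 CPM in those of peers (median 2817), at -0.80 (SE 0.24, adjusted p = 0.860 by edgeR). Above every mate lay 5 of 8 peers.

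In microglia the lowest p belonged to Nfkbia (ENSMOCG00000022242), the inhibitor that holds the inflammatory factor NF-kB in the cytosol and is itself one of its targets. It ran from 39.7 to 162 CPM in mates (median 101) and from 85.0 to 512 CPM in peers (median 252). In all, 6 of 8 peers lay above every mate, with a log2 fold change of -1.16 (SE 0.27, adjusted p = 0.448 by edgeR). With no filter on low counts edgeR called Nfkbia in microglia, as 1 of 7 genes. Slfn2, of the Schlafen family of immune genes, ran from 78.6 to 289 CPM in mates (median 195) and from 194 to 553 CPM in peers (median 331), at -0.73 (SE 0.20, adjusted p = 0.535 by edgeR). Neuronal RNA was present in the microglial nuclei too. The spiny-neuron markers summed to between 791 and 3747 CPM in mates (median 1309) and to between 530.0 and 2942 CPM in peers (median 1064), and all 4 that were tested had positive log2 fold changes (median 0.43, 1 at an unadjusted p under 0.05). Their part in the values of Nfkbia and Slfn2 was not tested. Values of Nfkbia outside microglia were chosen after they were seen. They were -0.64 (SE 0.21) in astrocytes, -0.82 (SE 0.28) in oligodendrocytes and -0.13 (SE 0.12) in spiny neurons. Over all nuclei female peers 1, 2, 4, 7 and 8 lay between 32.6 and 50.4 CPM, above every mate, and female peers 3, 5 and 6 between 19.0 and 20.3 CPM, in the middle of the mates. Female peer 1, at the top, also had the lowest median UMIs, and the part of library quality in Nfkbia was not tested. Without it the log2 fold change over all nuclei was -0.53, against -0.66 (SE 0.16) with it.

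**Figure D3:**
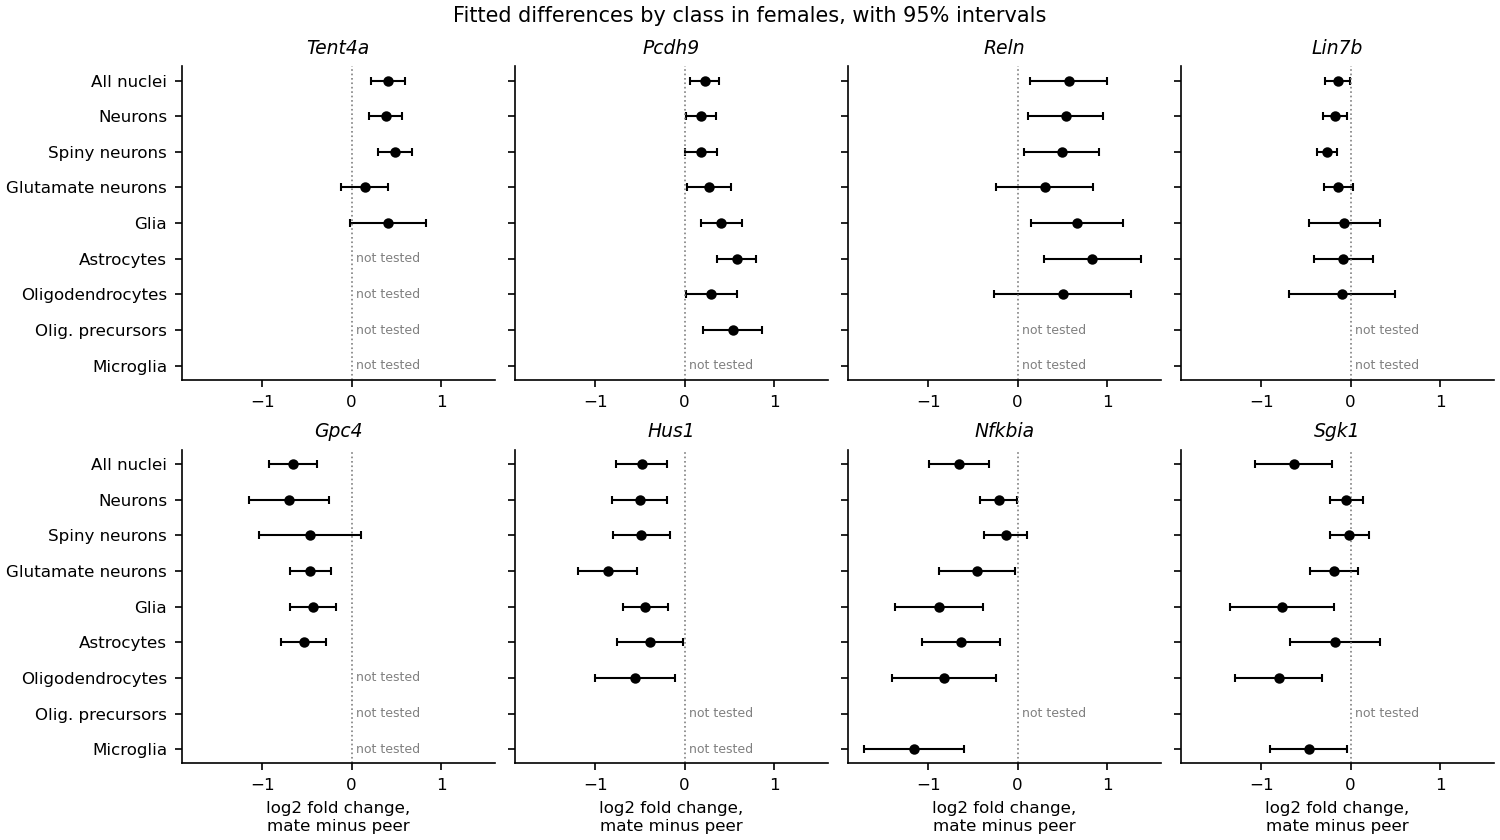
Fitted log2 fold change, female mates minus female peers (horizontal axes), with its 95% interval for 8 genes in 9 populations of nuclei (rows; olig. precursors are oligodendrocyte precursors); the dotted line marks no difference, and classes where a gene failed the filter on low counts read not tested. Tent4a is at 0.48 in spiny neurons and 0.15 in glutamate neurons, Pcdh9 at 0.58 in astrocytes, and Nfkbia at -1.16 in microglia but -0.13 in spiny neurons.

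The candidate genes of pair bonding showed no difference that passed the test. Oxtr (ENSMOCG00000002867), the oxytocin receptor, was low, at 2.58 to 30.2 CPM over all nuclei in mates (median 5.02) and 0.516 to 11.3 CPM in peers (median 5.87). The medians stood in the other order than the means because of female mate 3, at 30.2 CPM. The log2 fold change was 0.50 (SE 0.47, adjusted p = 0.746 by edgeR), and it was -0.00535 without female mate 3 and 0.0595 with the share of glutamate neurons as a covariate. Its 95% interval ran from -0.47 to 1.47, so its direction was not detectable at this depth and number of animals.

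Of the dopamine receptors, Drd2 ran from 57.6 to 116 CPM in mates (median 90.9) and from 41.6 to 105 CPM in peers (median 63.7). Below every mate lay 3 of 8 peers, and the log2 fold change was 0.41 (SE 0.17; unadjusted p = 0.0264, adjusted p = 0.474 by edgeR). Without female peer 5 it was 0.54 (adjusted p = 0.183 by edgeR). Drd1 was at 0.0918 (SE 0.13, adjusted p = 0.837 by edgeR), and leaving out 1 animal gave from 0.0319 (female peer 2) to 0.22 (female peer 5). Within spiny neurons, where both served as markers of the class, Drd2 was at 0.20 (SE 0.13).

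No opioid gene passed the test. The receptors Oprk1 and Oprm1 were at 0.02 (SE 0.12) and 0.11 (SE 0.15), and the precursors of their peptides, Pdyn and Penk, at 0.16 (SE 0.16) and 0.37 (SE 0.23). Their edgeR adjusted p values ran from 0.609 to 0.974, that of Penk being the lowest. With the share of glutamate neurons as a covariate Penk was at 0.22 and Oprm1 at 0.0463. Crhr1, the receptor of the stress peptide CRF, was at -0.26 (SE 0.25), and the progesterone and prolactin receptors Pgr and Prlr at 0.14 (SE 0.15) and -0.05 (SE 0.23). Fkbp5, which glucocorticoids induce, was at 0.21 (SE 0.16) and the activity gene Fos at 0.11 (SE 0.27). Leaving out 1 animal moved Pdyn to between 0.0795 (female mate 8) and 0.25 (female peer 6), and Pgr to between 0.0649 (female peer 3) and 0.21 (female mate 1). Crhr1 moved to between -0.42 (female mate 9) and -0.16 (female peer 7). With library number sets as a factor Crhr1 was at -0.0968 and Pgr at 0.26, and with the glutamate share as a covariate Crhr1 was at -0.14. The first of those sets held female mates 1 to 4 and no female peer. Leaving out 1 animal also moved Oprm1 to between 0.0310 (female mate 3) and 0.17 (female peer 1), and Fkbp5 to between 0.12 (female peer 3) and 0.32 (female peer 5). Of these genes, Oxtr, Drd1, Oprk1, Oprm1, Pdyn, Prlr and Fos changed direction under at least 1 alternative in at least 1 of all nuclei, neurons and glia. The oestrogen receptor Esr1 was too low to test, with means of 0.725 CPM in mates and 0.689 CPM in peers. Avpr1a and Nr3c1 were not analysed here. Hsf5, of the heat shock factor family, ran from 2.44 to 4.43 CPM in mates (median 3.04) and from 0.514 to 2.98 CPM in peers (median 1.85). Below every mate lay 7 of 8 peers, with a log2 fold change of 0.77 (SE 0.20, adjusted p = 0.422 by edgeR). Hsf5, Tent4a and Gpc4 were among the fixed genes because earlier results of these data were known.

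**Figure D4:**
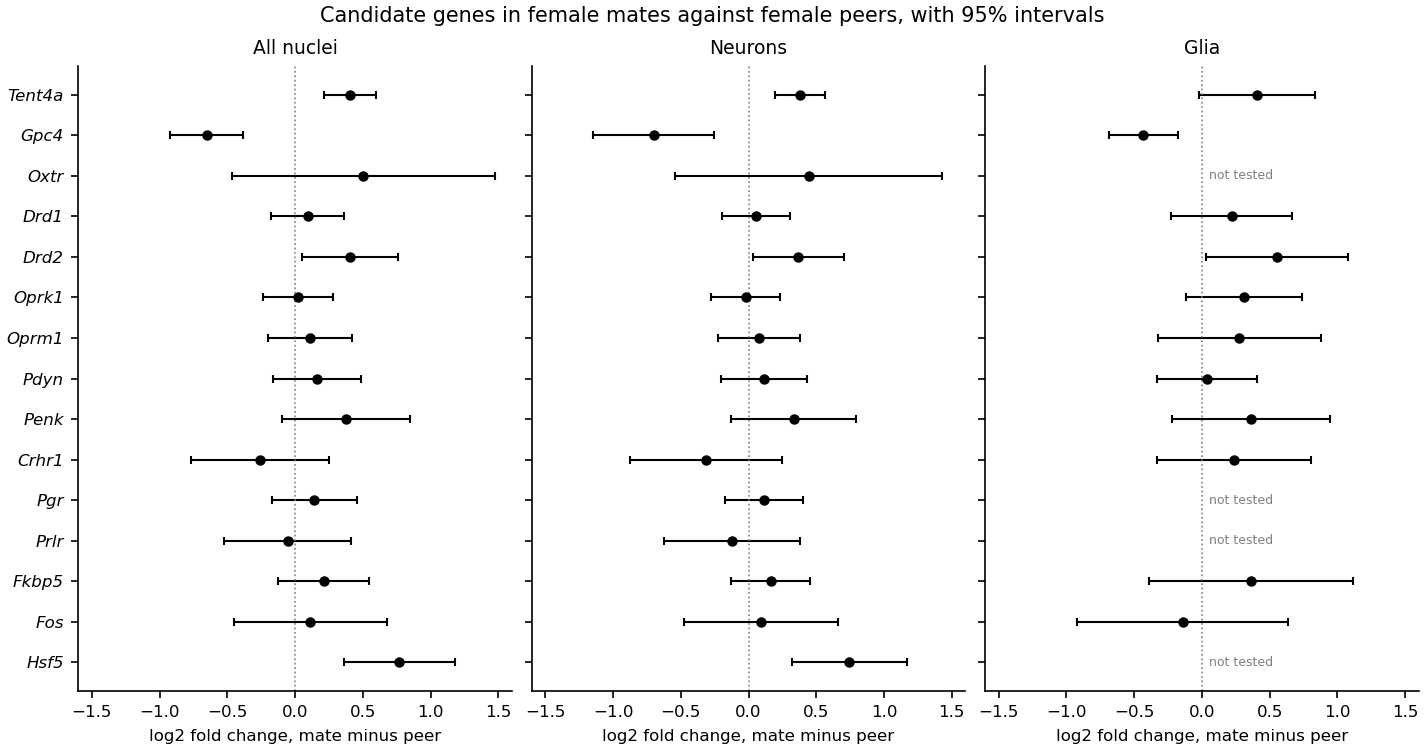
Fitted log2 fold change, female mates minus female peers (horizontal axes), with its 95% interval for 15 fixed genes in all nuclei, neurons and glia; the dotted line marks no difference. Drd1, Oprk1 and Prlr sit near 0 in all nuclei, and the interval of Oxtr reaches from -0.47 to 1.47.

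Gene lists were described by counts and medians, beside a median of -0.02 and a share of 9.51% at an unadjusted p under 0.05 over all genes tested in all nuclei. No member of any list was called in the main edgeR fits. In all nuclei DESeq2 called 1 member, Gpc4 (adjusted p = 0.0395). Of 23 glutamate receptor genes tested, 8 were higher in mates at that threshold and none lower, and the list's median was 0.17. Grm5, a metabotropic receptor coupled to calcium release, ran from 223 to 347 CPM in mates (median 290) and from 169 to 356 CPM in peers (median 225). Its highest value belonged to female peer 5, 4 peers lay below every mate, and the log2 fold change was 0.33 (SE 0.13, adjusted p = 0.474 by edgeR). Without female peer 5 it was 0.47 (edgeR adjusted p = 0.120). Grm4, a metabotropic receptor that lowers transmitter release, was at 0.41 (SE 0.15, adjusted p = 0.448 by edgeR), and the kainate receptor subunit Grik2 at 0.25 (SE 0.10, adjusted p = 0.472 by edgeR). Within spiny neurons alone 7 of 23 were higher at that threshold and none lower, where 4.37% of all genes tested were higher and 3.34% lower. The list's median there was 0.17, against -0.01 over all genes of that fit. Grin2a and Grin2b, 2 of the 7, were among the markers that chose the neurons.

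Synaptic adhesion genes gave 6 of 27 higher in mates at that threshold and none lower, with a median of 0.16. Nrxn3, a presynaptic neurexin, ran from 152 to 231 CPM in mates (median 186) and from 133 to 192 CPM in peers (median 156), at 0.25 (SE 0.10, adjusted p = 0.471 by edgeR). Slitrk5 and the latrophilin Adgrl1 were both at 0.24 (SE 0.09 and 0.10; edgeR adjusted p = 0.471 and 0.474), and without female peer 5 Slitrk5 was at 0.34 (adjusted p = 0.0976 by edgeR). In spiny neurons 4 of the 27 were higher and none lower (median 0.14), beside the 4.37% and 3.34% of all genes there. The 14 GABA receptor genes gave none in either direction over all nuclei (median 0.00), and none higher and 1 lower in spiny neurons (median -0.05).

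The dopamine list gave 4 of 16 higher and 1 lower, with a median of 0.14. The 4 were Drd2, Pde10a, Adcy5 and Pde1b, of which Pde10a and Pde1b degrade cyclic nucleotides and Adcy5 makes cyclic AMP in spiny neurons. Pde10a was at 0.39 (SE 0.15). Most of these genes mark spiny neurons, whose markers summed to between 5140 and 10550 CPM in mates (median 8131) and to between 5250 and 9491 CPM in peers (median 6763). All 14 spiny-neuron markers had positive log2 fold changes over all nuclei (median 0.24, 4 at that threshold). Within spiny neurons the dopamine list gave none of 14 higher and 1 lower (median 0.01), and the 14 markers, used to choose those nuclei, had a median of 0.03.

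Immediate early genes, which neurons switch on when active, were positive in 16 of 18 members, with a median of 0.18. Only Homer1 reached that threshold, at 22.0 to 39.1 CPM in mates (median 29.7) and 18.7 to 31.4 CPM in peers (median 22.4). Its log2 fold change was 0.39 (SE 0.12, adjusted p = 0.422 by edgeR). Circadian genes gave 3 of 11 higher and none lower (median 0.05), with Clock at 0.25 (SE 0.08), Per1 at 0.27 (SE 0.09) and Per2 at 0.21 (SE 0.10). The hours at which animals were killed are not given in the sources used here. Opioid genes gave none of 8 in either direction (median 0.08), CRF genes none of 4 (median -0.05), other neuropeptides none of 10 (median -0.21) and stress genes none of 8 (median 0.02). Of the oxytocin and vasopressin list, Cd38, an enzyme involved in oxytocin release, was at -0.59 (SE 0.24, adjusted p = 0.474 by edgeR) and was the 1 of 3 at that threshold.

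All 12 myelin genes were negative over all nuclei (median -0.33), with Opalin and Gjb1 at -0.53 (SE 0.25) and -0.51 (SE 0.23) and at an unadjusted p under 0.05. Gjb1 was at -0.82 among nuclei with at least 1000 UMIs, a cut that dropped most glia. Glia made up 25.8% of nuclei in mates and 29.1% in peers (adjusted exact permutation p = 0.381), and oligodendrocytes 7.44% and 8.66%, whose part in these values was not tested. In glia the 12 myelin genes had a median of -0.11 and none reached that threshold. Cholesterol synthesis genes gave none of 15 higher and 2 lower over all nuclei (median -0.10), and none higher and 4 lower in glia (median -0.23). Over all genes tested in glia 3.65% were higher and 3.2% lower at that threshold, with a median of -0.00. The list of glypicans and proteins that astrocytes secrete gave 1 of 19 higher and 2 lower (median -0.17), the 2 being Gpc4 and the growth factor Ptn, at -0.26 (SE 0.09). Steroid and prolactin genes gave 1 of 11 higher, Per1, and 1 lower, Sgk1 at -0.63 (SE 0.21), with a median of -0.05, and genes of the extracellular matrix net 1 of 15 higher and none lower (median 0.05). The 1 matrix gene was Reln, a secreted glycoprotein, at 0.57 (SE 0.21, adjusted p = 0.448 by edgeR) over all nuclei and 0.49 (SE 0.20) in spiny neurons. In glia, where 3.65% of all genes were higher and 3.2% lower, the matrix list gave 3 of 10 higher (Reln, Tnr and Hapln1) and none lower (median 0.15). Among glia with at least 1000 UMIs, Tnr went from 0.39 to 0.0798 and Hapln1 turned to -0.17. The steroid list gave none of 8 higher and 3 lower there, Sgk1, Nr3c2 and Pgrmc1 (median 0.02). At 1000 UMIs or more Sgk1 was at -0.45 rather than -0.77, Nr3c2 at -0.50 rather than -0.30 and Pgrmc1 at -0.12 rather than -0.25.

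All 11 microglial markers had negative log2 fold changes over all nuclei (median -0.62), 6 of them at an unadjusted p under 0.05 and none called. The microglial share of nuclei stood beside them at 2.57% in mates and 3.56% in peers (adjusted exact permutation p = 0.303), and its part in these values was not tested. They summed to between 235 and 832 CPM in mates (median 389) and to between 323 and 1121 CPM in peers (median 637). Within glia and microglia, which these markers helped to choose, their medians of -0.48 and -0.27 are a description only. Markers of immature neurons gave 4 of 5 lower (median -0.30), among them Dlx2 and Dcx, and 2 of 5 lower in spiny neurons (median -0.29), where 3.34% of all genes were lower and the median was -0.01. The 7 vascular markers had a median of -0.24, 1 of them lower at that threshold, and made up 0.00719 ± 0.00408% of UMIs (SD, n = 11) in mates and 0.00826 ± 0.00408% (SD, n = 8) in peers.

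**Figure D5:**
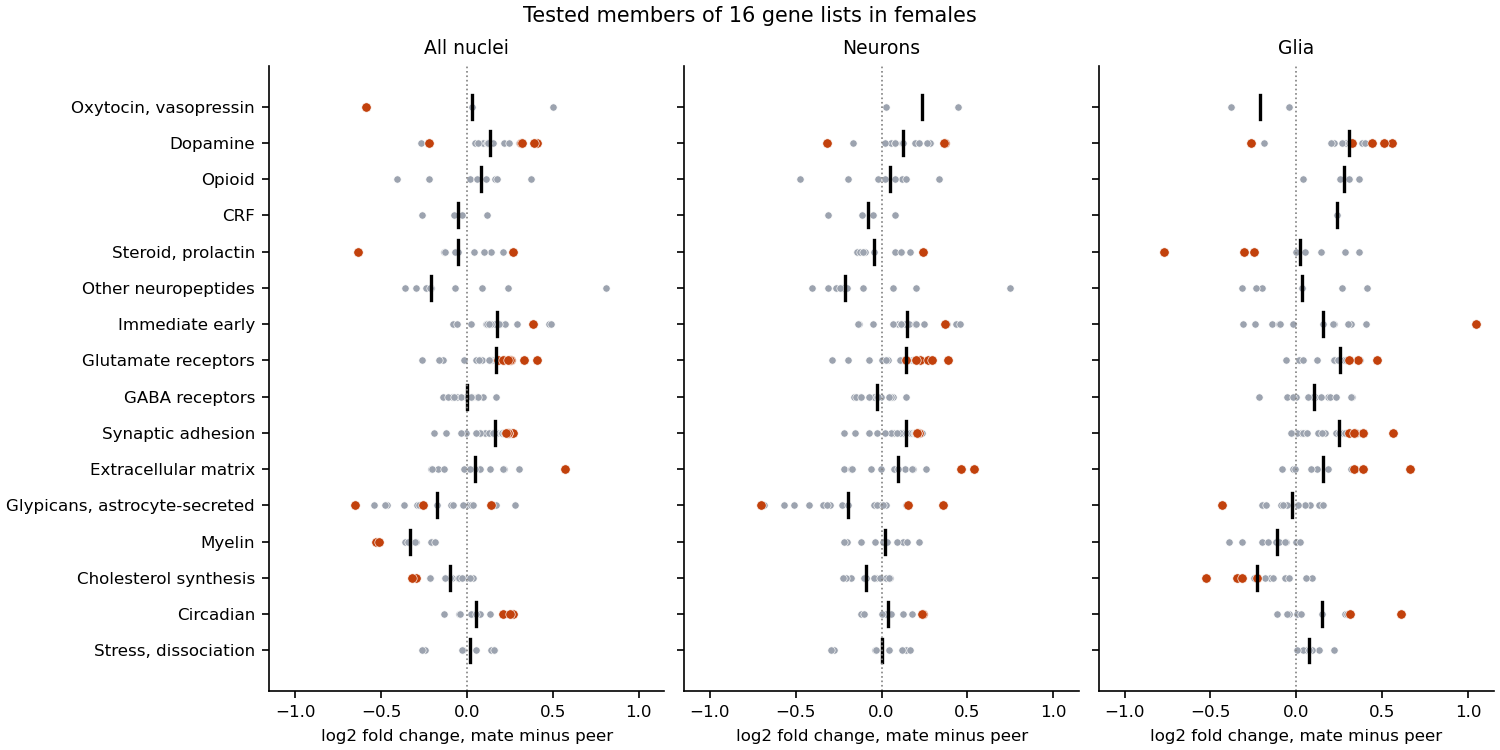
Fitted log2 fold change, female mates minus female peers (horizontal axes), of each tested member of 16 gene lists (rows) in all nuclei, neurons and glia; orange points have an unadjusted p under 0.05, grey points do not, and the black bar is the list's median. The glutamate receptor row has 8 orange points to the right of 0 in all nuclei, and the myelin row lies wholly to the left there with a median of -0.33.

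Whether mates and peers differed otherwise in females than in males was tested as an interaction over all 40 libraries, and edgeR called no gene. The lowest adjusted p was 0.9998 in all nuclei, 0.9995 in neurons and 0.966 in glia (edgeR), and DESeq2 called none. Genes at an unadjusted p under 0.05 numbered 268 of 13788 in all nuclei (1.94%), 257 of 12982 in neurons (1.98%) and 233 of 11187 in glia (2.08%). The median standard error was 0.17 in all nuclei and neurons and 0.22 in glia. Intervals within a 1.5-fold change made up 64.2% in all nuclei, 65.9% in neurons and 49.6% in glia. No difference is therefore shown to be particular to females. The genes of lowest p included Prom2 in neurons, with means of 0.951 CPM in female mates and 1.91 CPM in female peers, and of 1.63 CPM and 1.42 CPM in the males. In glia they included Rgcc, Cdc123 and Imp3, with differences of -0.85, -0.54 and 0.53 on the log2 scale between the sexes.

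Taken as whole profiles, libraries of different groups lay hardly farther apart than libraries of the same group. Distance was the root mean square difference in log2(CPM + 1) over all tested genes. In all nuclei its mean was 0.459 between groups, 0.447 within mates and 0.454 within peers, so the excess between groups was 0.00980 (one-sided exact permutation p = 0.0992). In neurons the excess was 0.00579 (p = 0.182, exact permutation) and in glia 0.00503 (p = 0.226, exact permutation). Without female peer 5 the excess in all nuclei was 0.0197 (exact permutation p = 0.0201), and without female mate 1 or 6 it was 0.0166 and 0.0143 (exact permutation p = 0.0309 and 0.0464). The spread within mates minus that within peers was -0.00730 in all nuclei (two-sided exact permutation p = 0.760).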

How the data were processed

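RNA of single nuclei was read from 40 droplet libraries of prairie vole nucleus accumbens, 1 animal each, of which the 19 from females are reported. The deposited matrices hold whole-number counts of UMIs per gene and barcode, made with Cell Ranger 3.1.0 per the submitters' processing notes. The genome build, annotation and strand setting are not given in the sources used here, so overlapping and antisense genes cannot be separated. Of 19130 genes in the files 3807 have no symbol, and 13332 names were found in RefSeq's MicOch1.0 table, used for names only.

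A barcode was kept if it reached 500 UMIs and no more than 5% of them came from the 13 mitochondrial genes. A nucleus was a neuron or a glial cell where it held at least 2 UMIs of that marker list and at least 2 times those of the other. Finer classes followed the same rule and were fitted with at least 20 nuclei per library in at least 6 libraries a group. Interneurons were not fitted. Doublets were not removed, except in an alternative with Scrublet that assumed 0.8% per 1000 barcodes. Counts were summed per animal and tested with edgeR 4.0.16 (quasi-likelihood, TMM scaling, filterByExpr) in R 4.3.3, with p-values adjusted by Benjamini-Hochberg. CPM values are these counts per 1000000 summed UMIs. Standard errors are the size of the fitted log2 fold change divided by the square root of its quasi-likelihood F statistic. The 95% intervals were built from these with a t distribution. Shares, library measures and distances (pseudocount 1 CPM) were compared by exact permutation over all 75582 assignments of the animals. The interaction with sex used all 40 libraries. The fits were tested on simulated data.

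Alternatives were DESeq2 1.42.0, limma 3.58.1 (voom with quality weights), RLE scaling, no filter, all libraries in the fit, library number in 4 sets of 10, vole number below or from 5000, glutamate-neuron share or median UMIs as covariates, at least 1000 UMIs, at most 1% mitochondrial UMIs, a stricter split (3 UMIs and 4 times) and leaving out each animal. Python 3.11.15, numpy 2.4.6, scipy 1.17.1, pandas 2.3.3, scanpy 1.11.5 and matplotlib 3.10.9 were used.

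Named genes were the 5 with the lowest p in each direction in all nuclei, neurons and glia, the 2 lowest in each finer class and the 3 lowest for the sexes. They needed a symbol and, in the first 2 sets, a mean of 5 CPM in a group, and markers of the split were left out. To these came 19 fixed genes (16 matched) and up to 3 members of a list at an unadjusted p under 0.05. The 16 gene lists and 10 marker lists hold 327 genes, 293 of them in the files. A few members are not reported here. The comparison, lists and genes were chosen with earlier results of these data known. Cage partners are not named in the labels, so females housed with each other may be related observations, and p-values measure the spread between these animals.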

Additional observations from a re-analysis of the deposited data

Results flagged for a closer look

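For 114 measures the 8 peers were searched for an animal far from the others by Dixon's test at the 95% level, and 18 measures held one (15.8%). The measures are not independent, since genes entered for both all nuclei and neurons, and most of the 18 were of female peer 5. This share therefore cannot be set against the 1 in 20 of the test level. Only groups of 4 to 10 were searched this way, so unusual animals among the 11 mates do not appear among those 18. By their values alone, female mate 7 was at 551 CPM for ENSMOCG00000010003 over all nuclei (next mate 78.1 CPM), female mate 3 at 30.2 CPM for Oxtr (next 13.4 CPM) and female mate 1 at 37.7% glia (next 28.0%). Female peer 5 had a neuron share of 75.2%, with the next peer at 66.8%. It was also the highest peer for Tent4a, at 26.8 CPM in all nuclei and 28.9 CPM in neurons. The metabotropic glutamate receptors were high in the same animal, Grm4 at 60.4 CPM in all nuclei and 64.9 CPM in neurons, and Grm5 at 356 CPM and 389 CPM. So were the synaptic adhesion genes, Slitrk5 at 193 CPM in all nuclei and 210.2 CPM in neurons and Adgrl1 at 399.7 CPM in all nuclei. Pde10a reached 317 CPM there in all nuclei, and the matrix linker Hapln1 117 CPM in glia.

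Female peer 1 had 16.6% of nuclei that met neither marker rule, with the next peer at 7.92%. In its glia Nfkbia reached 296 CPM and ENSMOCG00000010003 68.0 CPM, and in its neurons ENSMOCG00000010003 reached 37.0 CPM. Female peer 4 stood apart for Spa17 in glia, at 39.3 CPM, and for Lin7b in neurons, at 413 CPM.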

How the results depend on the processing

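Of 132 gene results in all nuclei, neurons and glia, 115 kept their direction and their side of the threshold under every alternative run. Of the others, 14 changed direction under at least 1, and 3 were called under at least 1. Gene results of the finer classes are not among the 132. The cause of each change below was not tested. DESeq2 called 1 gene in all nuclei (Gpc4, log2 fold change -0.65), 2 in spiny neurons, and 1 each in glutamate neurons, astrocytes and oligodendrocyte precursors. In glia the calls numbered 2 at 1000 UMIs or more (ENSMOCG00000010003 and Oaf, the latter at -0.75 with an edgeR adjusted p of 0.0435, against -0.27 and 0.750 in all glia, and chosen after its values were seen), 1 with median UMIs as a covariate, 1 with vole number as a factor, and 0 to 1 with an animal left out. With female mate 1, female peer 1 or female peer 5 left out, alternatives chosen after the data were seen, spiny neurons and astrocytes gave 0 to 1. With no filter on low counts 1 gene was called in oligodendrocytes, 3 in their precursors and 7 in microglia, Nfkbia among them. Genes at an unadjusted p under 0.05 numbered 2151 in all nuclei and 1463 in neurons by limma voom.

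The first set of library numbers, 1 to 10, held female mates 1 to 4 and no female peer. Those mates, female mate 3 among them, did not enter the difference fitted with these sets as a factor. With library number sets as a factor, log2 fold changes turned to -0.22 for Oxtr in all nuclei and -0.32 in neurons, -0.0343 and -0.0899 for Oprm1, -0.10 and -0.15 for Fos, -0.0591 for Pdyn in glia and 0.0335 for Prlr in all nuclei. With glutamate share as a covariate they turned to -0.0293 for Oxtr and -0.0131 for Drd1 in neurons, -0.0308 for Oprk1 and 0.00631 for Prlr in all nuclei, and -0.0252 for Pdyn in glia. Oprk1 in all nuclei was -0.0407 at most 1% mitochondrial and -0.0200 with median UMIs, Pdyn in glia -0.0853 with doublets removed, and Hapln1 in glia -0.17 at 1000 UMIs. With 1 animal left out, Oxtr ran from -0.00535 to 0.70 in all nuclei and from -0.0725 to 0.63 in neurons, and Drd1 in neurons from -0.00689 to 0.15. Oprk1 ran from -0.0508 to 0.0857 in all nuclei and from -0.0885 to 0.0257 in neurons, Oprm1 in neurons from -0.00423 to 0.14, and Pdyn in glia from -0.0488 to 0.10. Prlr ran from -0.20 to 0.13 in all nuclei and from -0.29 to 0.0812 in neurons, and Fos from -0.0214 to 0.37 in all nuclei, -0.0439 to 0.36 in neurons and -0.46 to 0.0934 in glia.

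The difference in the share of nuclei meeting neither rule was 0.213 points at 1000 UMIs and ran from -1.27 to 0.556 without peer 5 or 1. No share passed the test after adjustment under any alternative. That of oligodendrocyte precursors was -0.729 at 1000 UMIs. With 1 animal left out, the excess distance between groups ran from 0.00581 to 0.0197 in all nuclei, from 0.00114 to 0.0132 in neurons and from -0.000641 to 0.0116 in glia. Over the 500 most variable genes it was 0.0102 in all nuclei, 0.000462 in neurons and -0.00415 in glia. The spread of mates minus peers ran from -0.0240 to 0.00424 in all nuclei, -0.0204 to 0.00278 in neurons and -0.0198 to 0.0156 in glia, and was 0.0107 in glia over the 500 genes.

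No paired analysis was possible because replicate numbers follow accession order and pair no animals. Depth limited the finer classes: 2106 genes were tested in oligodendrocyte precursors and 1862 in microglia, against 13476 in all nuclei. Nuclei without enough marker UMIs belong to no class, so classes miss shallow nuclei.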
